A study of Homo sapiens with 8 samples.

Results

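The members described here are tight chains of neighbouring YTHDF2 binding positions, which are runs of 3 or more listed positions on the same strand with no gap over 50 nt. They hold 2836 of the 37613 distinct positions of the deposited list (7.54%), in 896 chains. Positions in chains of 2 numbered 8324 and lone positions, with no neighbour within 50 nt, 26453. Members were chosen by the listed positions alone, so chain sizes, spans and gaps are descriptions. Gaps were measured on the genome, so an intron between positions counts in full.

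The list comes from iCLIP2 of YTHDF2 in HEK293T cells, an established human embryonic kidney line labelled wild type. iCLIP2 maps contacts of a protein with RNA to the nucleotide, from cDNAs cut short where ultraviolet light had joined the precipitated protein to the RNA. For 12 h, the cells of 4 libraries had 20 µM of the METTL3 inhibitor STM2457 with 0.2% DMSO, and those of another 4 had 0.2% DMSO alone, to ask which YTHDF2 binding depends on m6A. Each row has 1 score for the whole study, so no comparison of STM2457 with DMSO was made, replicate spread and read depth are unknown, and every comparison below is among positions or genes, with no test. Of 12 marker genes of blood, liver and muscle cells, which a kidney line should lack, none had a listed position. Over all protein-coding genes 7633 of 19932 had one, so most genes had none, and the markers say little about the cells.

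N6-methyladenosine (m6A) is the methylated adenosine that the METTL3-METTL14 enzyme, with the adaptors WTAP, VIRMA, ZC3H13 and RBM15, places in mRNA. It forms at adenosines followed by C and preceded by a purine, most often in long exons and near stop codons. YTHDF2 holds the methylated base in a pocket of its YTH domain and brings the CCR4-NOT deadenylase to the mRNA, which shortens its life.

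The listed positions lay on the adenosine of that methylation sequence wherever the sequence could be read. RefSeq windows of 300 bases at gene starts (GRCh38.p14, 250 bases before to 50 after the start) covered 282 listed positions, among them 12 chained positions in 4 whole chains, and all 282 were an A. The sequence searched was AC preceded by A or G, and before that by A, G or T, read on the strand of the position, and is called the motif here. It was present at 12 of 12 chained positions (exact binomial 95% interval 73.5 to 100%), 42 of 42 paired and 226 of 226 lone positions with enough sequence to read. In the distinct sequences of the 35116 windows, read on both strands, 8.58% of adenosines had it. The fifth letter was A, C or T at 10 of 12 chained, 39 of 42 paired and 188 of 224 lone positions. GGACT was the most frequent of the five-letter words, at 41 of 278 positions. Of the distinct windows of 300 bases, read on both strands, 25.3% held a GGACT. That is a share of long stretches and cannot be set against the share of positions. Intervals here cover counting error only, and that of the 12 chained positions takes them as separate draws, though they lie in 4 chains. The labels and files do not say whether the authors moved positions to this sequence, or kept only positions with it. If they did, the motif shares of all 3 classes were fixed beforehand.

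The 4 chains with sequence are shown because they give the letters behind tight spacing. Capitals mark the 4 letters of the methylation sequence at each listed position, whose adenosine is the third capital of each set, and each line is 5′ to 3′ on the strand of the RNA.
NFYA, plus strand, chr6:41097846-41097875: tcacacTGACTAACtgaatGGACgctttgt
AUP1, minus strand, chr2:74529259-74529279: cgtagtgcGGACcatgtgtgc
AUP1, minus strand, chr2:74529212-74529239: cggcaggaGGACtccGGACtccgggatc
CDYL, plus strand, chr6:4892136-4892155: aagagcaGGACcgcagtgga
CDYL, plus strand, chr6:4892173-4892193: gccctgagAAACtggaccccg
CDYL, plus strand, chr6:4892202-4892222: ggtcaggaGGACacagtggca
SMIM10L1, plus strand, chr12:11171769-11171789: cggaaacaGAACtgcagttaa
SMIM10L1, plus strand, chr12:11171817-11171844: gcatcctaAAACaccTGACgaatttcag

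In NFYA, a subunit of the CCAAT-binding transcription factor, 3 adenosines within 14 nt were listed, with the first 2 motifs end to end. The scores of these positions, 5′ to 3′, were 59.0, 0.371 and 0.613, so the first stood far above its neighbours. In AUP1, which acts at lipid droplets and in the degradation of endoplasmic reticulum proteins, the score was 31.3 at the GGACC, 9.69 at the nearer GGACT and 3.71 at the last position, whose word was the same. In CDYL, a chromodomain corepressor, the score was 21.6 at the GGACC, 4.39 at the AAACT in the middle and 50.5 at the last position. In SMIM10L1 the scores were 7.51, 3.10 and 0.917, highest at the 5′-most position. The stretch of the AUP1 chain held 3 motifs and that of the NFYA chain 3, all of them listed, whereas the CDYL and SMIM10L1 stretches each held 5, of which 2 were not listed.

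The motif also recurred at such distances over all windows at gene starts, with or without a listed position. Distinct windows read on both strands gave 69592 readings, of which 62.7% held 3 or more motifs spaced by 50 nt or less. Of all motif adenosines 61.5% were in such a run. Most of these letters lie upstream of the transcript or on its opposite strand, and windows with listed positions were not left out. Among positions with 50 nt of sequence on both sides, the letters within 50 nt held a median of 3.5 motifs for 8 chained positions, 3 for 28 paired and 2 for 119 lone ones. This order is set by the chaining rule, since each listed position is itself a motif and its listed neighbours add to the count. The 8 chained positions came from only a few chains that fell in windows at annotated starts, so these values do not speak for other chains. A window need not be at the outermost start of the chain's own gene. The middle of the SMIM10L1 chain lay 633 nt from that start, beyond the 50 bases after a start that a window covers.

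Chains were mostly short. Of the 896, 766 had 3 positions, 113 had 4, 16 had 5 and 1 had 6. They spanned a median of 56.0 nt, with a range of 11 to 167 nt. Neighbouring positions inside chains were a median of 26.0 nt apart over 1940 gaps, close to the 25 nt of the 4162 chains of 2. No 2 positions of the whole list on a strand were closer than 4 nt, a distance at which 155 pairs of neighbours lay. That is also the smallest distance at which the 4-letter motif can recur, since its letters exclude spacings of 1, 2 and 3 nt. Of the gaps inside chains 18.2% were 4 to 10 nt, or 50.6 for each spacing value, against 38.6 to 40.8 for each spacing value from 11 to 50 nt.

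Gaps that were multiples of 3 nt, the length of a codon, were more frequent than others. There were 46.3 chain gaps for each spacing value divisible by 3, against 38.6 and 39.2 for those leaving a remainder of 1 and 2. The chains of 2 had 98.9 against 82.5 and 84.9. Gaps of 51 to 100 nt, outside any chain, had 117 against 95.4 and 90.7. Spacings of all motifs in the windows at gene starts, most of whose letters lie upstream of the transcript, had 4730 against 4765 and 4549, with no such excess over both. In chains within the last 1 kb of genes of 10 kb or more, 58 of 166 gaps (34.9%) were multiples of 3. In chains of such genes farther from the end, 492 of 1402 (35.1%) were. Over all chains, a wider set that also holds those of shorter genes, the share was 35.8%, and 15 of the 47 spacing values from 4 to 50 nt (31.9%) are multiples of 3. The split by gene end was chosen after seeing the data, and codon positions were not used here. With only 166 gaps near the end, it cannot show whether the share differs there.

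**Figure D1:**
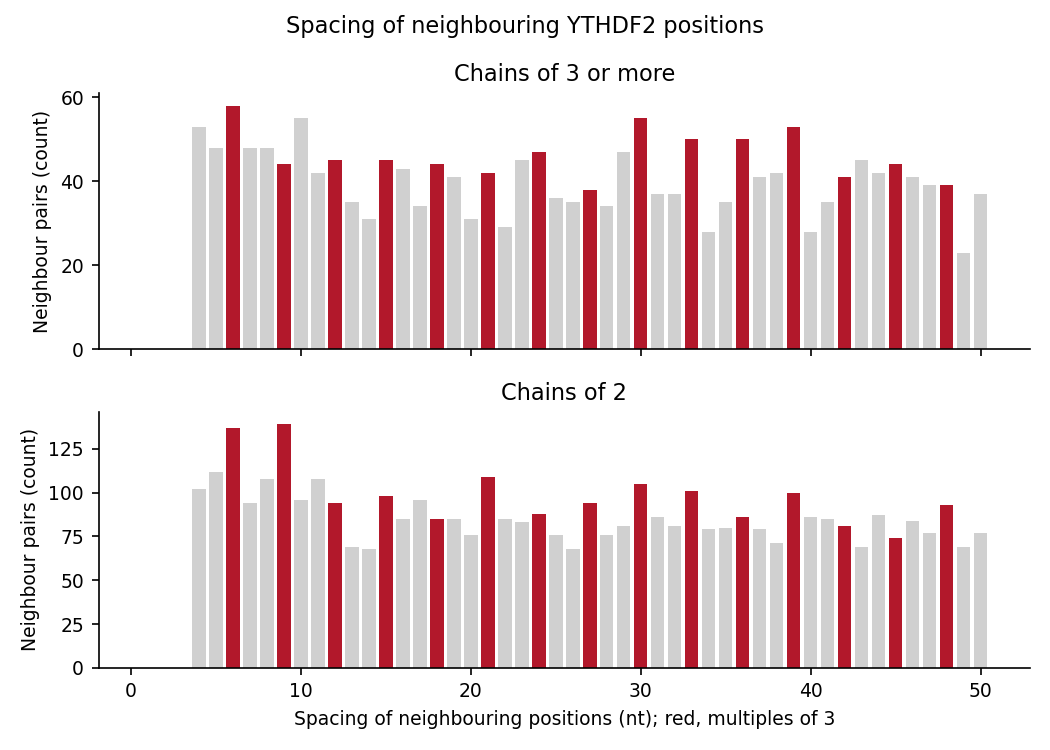
Number of neighbouring position pairs (vertical axis, count) at each spacing in nt (horizontal axis), in chains of 3 or more (top) and chains of 2 (bottom), with multiples of 3 nt in red. No pair is closer than 4 nt, and red bars average 46.3 against 38.6 and 39.2 for the other remainders in the top panel.

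The only chain of 6 was in SOCS5, a suppressor of cytokine signalling. Its positions on chromosome 2 (plus strand, GRCh38) were 46758963, 46758974, 46759024, 46759041, 46759064 and 46759107, with scores of 5.73, 11.7, 16.5, 7.12, 6.04 and 8.76. Its scores were even, within 32.6 percentile points of the list. A chain of 4 followed from 46759424 to 46759468, with scores of 15.1, 8.92, 13.3 and 38.1. Both chains held 10 of the gene's 13 positions (76.9%), the highest share among genes with 8 or more positions.

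Among chains of 5, that of TNRC6A was the shortest at 73 nt. TNRC6A encodes a GW182 protein, which links Argonaute to deadenylases. Its positions on chromosome 16 (plus strand) from 24790878 to 24790950 had scores of 20.6, 0.709, 34.4, 5.52 and 6.74, so a low position sat 4 nt from a neighbour of 20.6 and 8 nt from one of 34.4. In IMP4, a component of the U3 ribosomal RNA processing particle, 5 positions within 84 nt from 130346497 on chromosome 2 had scores of 81.2, 13.6, 27.8, 3.37 and 14.1. IMP4 had no other listed position.

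The zinc finger gene ZNF121 had an evenly high chain. Its 5 positions within 85 nt, from 9566935 to 9567019 on chromosome 19 (minus strand), had scores of 24.7, 26.5, 99.5, 66.0 and 127 from 5′ to 3′. HOXD13, a homeobox factor of limb and urogenital patterning, had 23.3, 68.1, 69.1, 19.9 and 35.6 within 92 nt from 176094568 on chromosome 2. In both genes all positions ranked above the 70th percentile, with ranges of 19.2 and 20.3 points.

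Other chains of 5 were uneven. FBRS, on chromosome 16 from 30658973, had scores of 6.22, 0.153, 25.8, 0.882 and 0.292, of which 3 were in the lowest 10% of the list. KIF3B, a kinesin-2 motor subunit, had 148, 5.19, 5.84, 37.2 and 19.6 within 95 nt from 32309990 on chromosome 20. TNRC18 had 4.23, 0.895, 12.3, 5.28 and 8.55 within 96 nt on chromosome 7, with none high.

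The remaining chains of 5 among the 10 with most positions were in PUS1 and ZYG11B. PUS1, a pseudouridine synthase, had 19.5, 7.24, 13.6, 39.9 and 8.06 within 102 nt from 131941293 on chromosome 12. ZYG11B, a substrate receptor of a cullin ubiquitin ligase, had 2.34, 92.3, 25.5, 20.7 and 6.17 within 116 nt from 52771496 on chromosome 1. Its low first and last positions stood beside 3 higher ones.

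**Figure D2:**
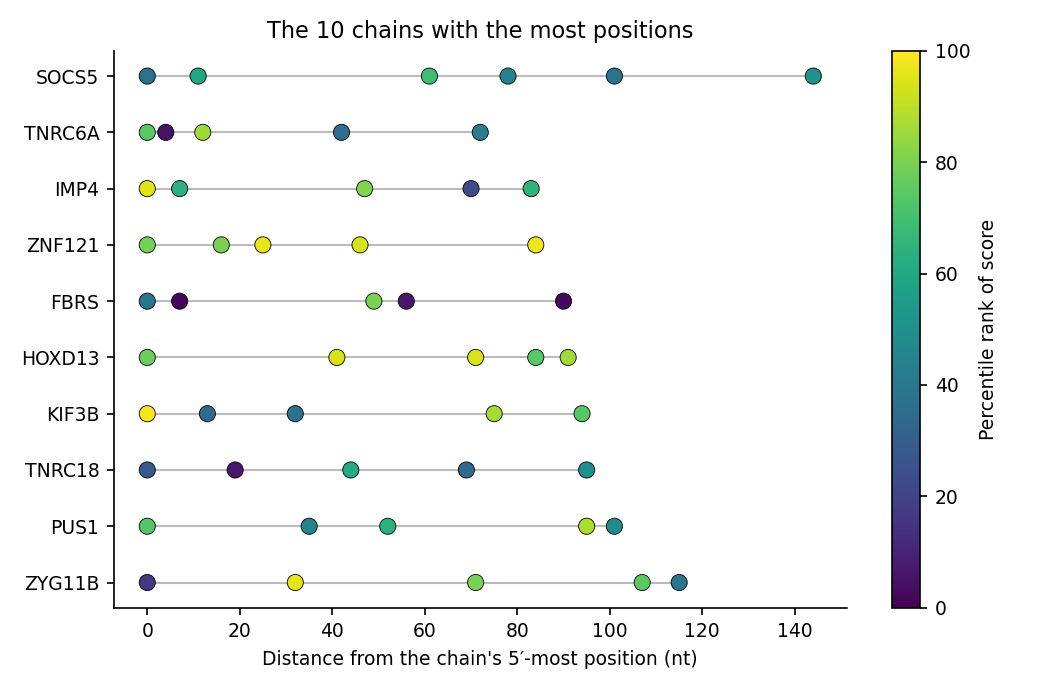
Positions of the 10 chains with the most positions, drawn by distance in nt from the 5′-most position (horizontal axis), 1 gene per line, with the percentile rank of the score in colour. ZNF121 and HOXD13 are high throughout, while KIF3B and FBRS mix high and low positions within 100 nt.

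Chains with some of the highest median scores were in ZNF503, SON, TPT1, BTG1 and MRPL15. SON, a scaffold of nuclear speckles, had 252, 216 and 461 at 33549841, 33549862 and 33549870 on chromosome 21, all within 0.542 percentile points of each other, and 14.6, 246 and 44.3 in a second chain from 33553375. ZNF503 had 283, 106 and 578 from 75399069 down to 75399040 on chromosome 10 (minus strand). TPT1, the translationally controlled tumour protein, had 99.1, 522 and 181 from 45337310 down to 45337261 on chromosome 13 (minus strand). In SON's first chain, ZNF503 and TPT1 all positions were in the highest 10% of the list. BTG1, an antiproliferative partner of the deadenylase, had 218, 4.50 and 176 within 61 nt on chromosome 12, with the low position in the middle. MRPL15 of the mitochondrial ribosome had 161, 28.8 and 147 within 98 nt on chromosome 8, again with the lowest in the middle. The highest score of the list, 708, was shared by 12 positions, none of them chained. TPT1 has processed copies elsewhere in the genome, and the labels do not say how reads were assigned among copies, so its scores are uncertain.

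Scores of chained positions were somewhat higher than those of lone positions. The score is the authors' own, on a scale that neither labels nor file state, so differences are given in ranks. Its median was 10.7 (quartiles 4.14 and 28.2) for chained positions, 10.3 (4.00 and 24.6) for paired and 8.11 (3.65 and 19) for lone positions. The highest 10% of the list held 13.0% of chained, 11.8% of paired and 9.13% of lone positions. Low scores were also present in chains, with 8.99% of chained, 9.92% of paired and 10.1% of lone positions in the lowest 10%. Within 740 genes that had both kinds, chained positions ranked a mean of 5.59 percentile points above lone ones, with an SD of 29.3 over genes, and were higher in 436 genes and lower in 304. With a largest gap of 25 nt the mean was 2.09 points, and with 100 nt it was 7.70. Genes are not independent replicates, so no test was made.

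**Figure D3:**
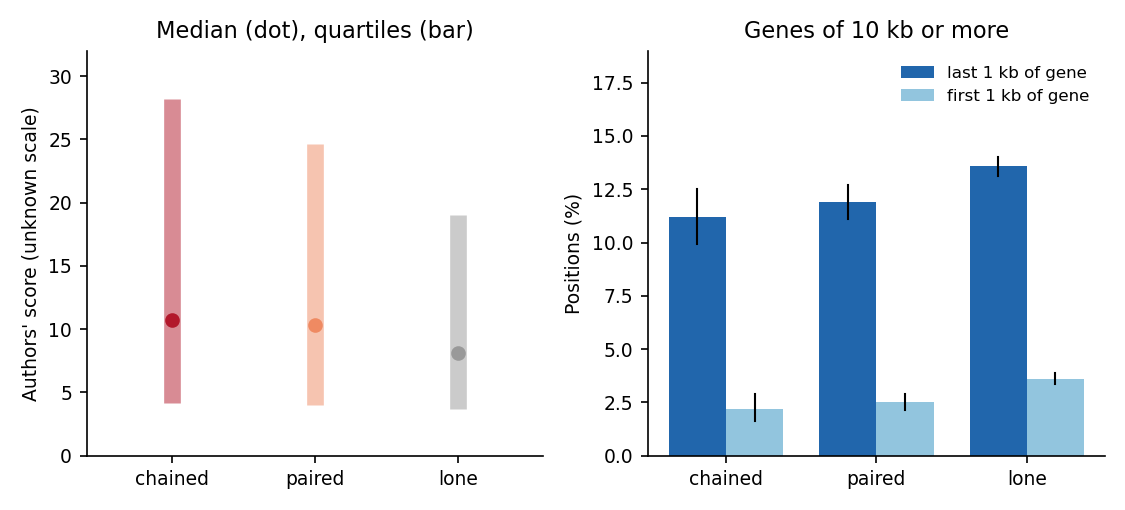
Left, the authors' score (unknown scale) for chained, paired and lone positions, with dots at the medians of 10.7, 10.3 and 8.11 and bars over the quartiles. Right, percent of the positions in genes of 10 kb or more that lie in the last and first 1 kb of the gene, with exact binomial 95% intervals as lines, which take positions as separate draws and are too narrow for chains. Chained positions are at 11.2% and 2.20%.

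Positions of a chain did not share 1 level. The highest and lowest position of a chain were a median of 46.1 percentile points apart (quartiles 27.2 and 65.1). This distance was over 50 points in 416 chains (46.4%) and under 10 in 40. Its median was 43.5 points in chains of 3, 56.3 in chains of 4 and 69.5 in chains of 5, and more positions give a wider range by construction. All positions were at or above the list's median score in 198 chains and below it in 106, and 275 chains (30.7%) had a position in the highest 10%. Each chain has 3 or more chances of such a position. No ranges or shares were computed for sets of unrelated positions, so these values are not read as a trait of chains. Direct neighbours in chains differed by a median of 24.0 points, with 23.8 points at 4 to 10 nt and 25.8 points at 41 to 50 nt. Neighbours of the same gene 51 to 200 nt apart differed by 25.1 points and those more than 1 kb and up to 10000 nt apart by 27.7 points, a small range of values.

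In chains of 3 the highest score was at the 3′ end in 279 of 766 (36.4%, exact binomial 95% interval 33.0 to 39.9%), at the 5′ end in 250 (32.6%, 29.3 to 36.1%) and in the middle in 237 (30.9%, 27.7 to 34.3%). The median scores of the positions from 5′ to 3′ were 11.1, 10.6 and 10.9. No place in the chain stood out by its median. In the 130 chains of 4 or more, the highest score was at the 5′ end in 25 (19.2%), at an inner position in 64 (49.2%) and at the 3′ end in 41 (31.5%), with more inner positions to hold it.

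From its row order, the deposited list is made of a shorter part of 8935 rows and a longer part of 34243, neither of them labelled, and a position can be in both and so stand on 2 rows. Chained positions were on 2 rows in 14.2% of cases, against 15.8% of paired and 14.6% of lone ones. With a largest gap of 100 nt, the difference between chained and lone was 2.51 points, with the opposite sign to the −0.305 here. Only in the shorter part were 6.88% of chained, 7.36% of paired and 9.69% of lone positions. Of the 896 chains, 435 came from the longer part alone, 461 used both parts and 0 the shorter part alone. In 180 chains at least 1 position was in the shorter part only. Chains built from the longer part alone numbered 736 and held 2321 positions. All of these are among the 2836 by construction, since leaving positions out can only widen gaps.

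Chained positions near the 3′ end of genes were a slightly smaller share than lone ones, a difference within counting error by chain. In genes of 10 kb or more, 259 of 2318 chained positions (11.2%) were in the last 1 kb, against 11.9% of paired and 13.6% of lone positions. Positions of a chain lie together, so they are not separate draws. Counted by chain, a count added after seeing the data, 84 of 732 (11.5%, exact binomial 95% interval 9.26 to 14%) had their median position there, an interval that holds the share of lone positions. The first 1 kb held 51 chained positions (2.20%), against 2.50% of paired and 3.61% of lone ones. In the terminal 100 nt of such genes there were 0 chained positions, against 15 paired (0.222%) and 80 lone positions (0.368%). With a largest gap of 25 nt the difference turned, with 15.8% of chained positions in the last 1 kb and 2.61 points more than among lone ones. Exons and coding regions were not used here.

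By chromosome the share of chained positions was between 4.04% on the X chromosome, 45 of 1114, and 9.76% on chromosome 20, 108 of 1107. The share was 9.05% on chromosome 1, which had 123 chains, the most of any.

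Genes with a chain numbered 796 of the 7633 protein-coding genes with a listed position (10.4%). A gene with more positions has more chances of a chain. Chains were found in 5.54% of genes with 3 or 4 positions, 17.0% with 5 to 9, 35.4% with 10 to 19, 52.2% with 20 to 29 and 73.1% with 30 or more. Genes with a chain had a median of 9 positions and those without 3. Of the genes with 3 or more positions, which alone can have a chain, 17.0% had one, 796 of 4670. Exactly 1 chain was found in 727 genes, 2 in 59 and 3 or more in 10.

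MKI67, which encodes the proliferation marker Ki-67 that coats mitotic chromosomes, had the most chains. Of its 54 positions 19 were in 6 chains on chromosome 10 (minus strand), between 128098553 and 128108283. The chain nearest its 3′ end had scores of 210, 68.8 and 31.2 from 5′ to 3′. The next, of 4 positions from 128099066 down to 128098986, had 96.5, 125, 19.9 and 43.7. These 2 chains were high throughout. The chain from 128104564 down was even too, with 26.1, 77.5 and 24.8. The other 3 were mixed. They had 0.538, 15.5 and 42.2 from 128101568 down, 1.42, 33.7 and 18.5 from 128106389, and 79.2, 19.2 and 1.52 from 128108283. In 4 of the 6 chains a position came from the shorter part of the list only.

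TASOR2, a relative of the HUSH silencing subunit TASOR, had 13 of 45 positions in 4 chains on chromosome 10 (plus strand). They started at 5731093, 5742430, 5746731 and 5749302, with median scores of 54.6, 8.45, 53.8 and 26.6. Within the second, scores of 8.45, 0.0412 and 36.3 lay within 29 nt.

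The H3K36 methyltransferases NSD1, NSD2 and ASH1L had 3 chains each. In NSD1, chains began at 177135536, 177211812 and 177295294 on chromosome 5 (plus strand), and the second, 29 nt long, had scores of 4.79, 27.9 and 326. In NSD2, 9 of only 15 positions were chained (60%), from 1901045, 1918425 and 1978986 on chromosome 4 (plus strand), with median scores of 6, 10.4 and 10.7. In ASH1L, 2 chains lay between 155438624 and 155438888 on chromosome 1 (minus strand), with median scores of 57.5 and 10.6, and the third reached down at 155521206.

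QSER1, ZNF281 and ARHGAP35 had 10 chained positions each in 3 chains. In QSER1, a glutamine- and serine-rich protein, 10 of 22 positions were chained, and 4 of them within 54 nt on chromosome 11 from 32935264 had scores of 30, 73.1, 11 and 28.1. In the zinc finger gene ZNF281, 10 of 23 were chained, and the chain of 4 from 200407319 on chromosome 1 (minus strand) had 118, 1.80, 15.5 and 26.7 from 5′ to 3′, with 8 nt between its highest and its lowest position. In ARHGAP35, 10 of 37 were chained, and 2 chains of 3 and 4 positions lay close together on chromosome 19 from 47000754 to 47000920.

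The zinc finger gene ZNF629 had 9 of 25 positions in 3 chains on chromosome 16, with median scores of 25.6, 11.9 and 3.51.

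**Figure D4:**
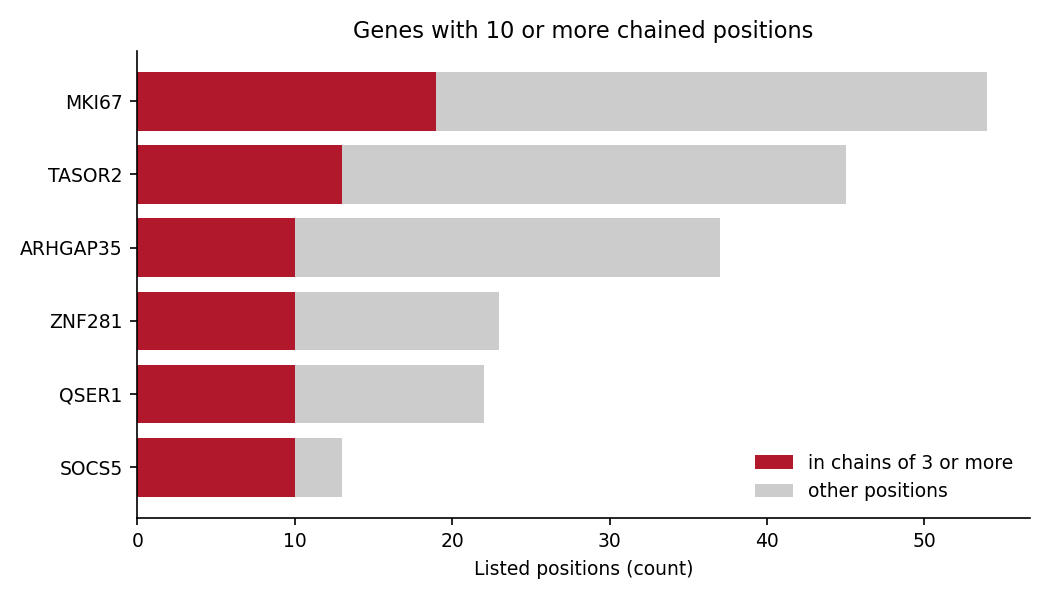
Listed positions (horizontal axis, count) in the genes with 10 or more chained positions, split into those in chains of 3 or more (red) and the others (grey). MKI67 has 19 chained positions of 54 and SOCS5 10 of 13.

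Among genes with 8 or more positions, the highest shares in chains after SOCS5 were in RPS6KC1 with 6 of 8 (75%), GADD45GIP1 with 6 of 9 (66.7%) and NANP with 5 of 8 (62.5%). GADD45GIP1, a protein of the mitochondrial ribosome, had scores of 37.0, 51.5 and 7.93 from 12954476 down to 12954431 on chromosome 19 (minus strand), and 97.3, 56.3 and 19.8 from 12954371 down to 12954295. NANP, a phosphatase of sialic acid synthesis, had 5.52, 6.01, 17.6, 52.1 and 19.8 within 131 nt on chromosome 20. NSD2 and EPOP, a partner of elongin and Polycomb, had 60%, as had NHSL1, and RSPRY1 had 58.3%. RSPRY1's 7 chained positions lay in chains of 4 and 3 on chromosome 16, from 57204722 to 57204995, and all but 1 of its scores were between 11.3 and 51.7.

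Gene lists were described by how many of their genes with 3 or more positions had a chain, beside the 17.0% over all such genes. No list was tested, and lists whose genes have many positions have more chances. Of the m6A writers and erasers 4 of 11 had a chain (36.4%). Their bound genes had a median of 11 positions, and of all genes with 10 to 19 positions 35.4% had a chain, a share close to theirs. ZC3H13 had 6 of 14 positions in 2 chains, with scores of 5.51, 19.3 and 33.7 from 45957183 and 88.6, 11.3 and 6.09 from 45985602 on chromosome 13 (minus strand). WTAP had scores of 26.5, 63.3 and 34.7 at 159755180, 159755226 and 159755248 on chromosome 6, and RBM15B 14.6, 31.4 and 12.9 within 50 nt on chromosome 3 from 51394013. The fourth was METTL16, with a median score of 4.69. Of the YTH and other m6A readers 0 of 8 had a chain, with a median of 4 positions per bound gene, against 11 for the writers and erasers, and the difference between these lists was not tested.

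Genes that methylate or demethylate histone lysines had a chain in 12 of 31 cases (38.7%), led by NSD1, ASH1L and NSD2. Of their 441 positions 61 were chained (13.8%), against 7.55% of positions in all bound genes. This is not a like comparison, since their bound genes had a median of 8.5 positions. The chained share of positions rose from 4.95% in genes with 3 or 4 positions to 11.6% in those with 30 or more. NSD1, ASH1L and NSD2 held 9 of the 61 each. Coactivators and Mediator had 5 of 16, with CREBBP and MED13L at 2 chains each. Their bound genes had a median of 14 positions, and of all genes with 10 to 19 positions 35.4% had a chain. Chromatin remodellers had 5 of 19, with CHD7 at 2 chains and 6 of 28 positions. Of these remodellers' 279 positions 6.81% were chained, below the share over all bound genes, and their bound genes had a median of 10 positions against 3 over all bound genes. ZNF genes had 40 of 226 (17.7%), ZBTB genes 5 of 29 and forkhead factors 3 of 17, shares close to that of all genes. ZNF644 had 2 chains, and ZBTB34, ZBTB11, ZBTB6 and FOXO1 had a chain of 4 positions each.

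Among factors of mRNA decay, nonsense-mediated decay had 3 of 9, with SMG8 at 2 chains and 6 of 20 positions, and Argonaute and TNRC6 genes 2 of 6, TNRC6A and TNRC6B. Bound genes of these lists had medians of 7 and 13.5 positions. Of all genes with 5 to 9 positions 17.0% had a chain, and of those with 10 to 19 positions 35.4%. CCR4-NOT and deadenylation genes had 2 of 11, PAN3 and BTG1, and decapping and 5′ to 3′ decay 1 of 8, the helicase DDX6, whose chain had a median score of 79.0. Of the genes of ribosome collision and rescue 2 of 9 had one, MAP3K20, the ribotoxic stress kinase ZAK, with 6 of 7 positions in 2 chains, and ASCC3.

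Lists with small shares were translation initiation factors with 1 of 24 (4.17%), oxidative phosphorylation with 1 of 14, hnRNP genes with 1 of 12 and cytosolic ribosomal proteins with 2 of 17. In that order, their bound genes had medians of only 3, 2, 3 and 1 positions. Of all genes with 3 or 4 positions 5.54% had a chain, so these shares are not read as a trait of the lists. The initiation factor was EIF2A, whose 5 positions formed 1 chain on chromosome 3 from 150572078, with scores of 9.68, 42.6, 99.3, 23.7 and 27.6. The ribosomal protein genes were RPS24, with 3 positions within 13 nt and a median score of 30.1, and RPS19, whose 3 positions had a median of 7.02 and included 2 from the shorter part of the list only. The others were COX4I1, with a median score of 20.5, and HNRNPF, with 71.0. Ribosomal protein genes have processed copies, so their scores are uncertain.

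DNA repair scaffolds had a chain in 0 of 15 genes. They had 118 positions, a median of 6.5 per bound gene, and of all genes with 5 to 9 positions 17.0% had a chain. Replication-dependent histone genes, with 30 positions in 25 bound genes, had none with 3 positions. Large mitotic proteins had 3 of 12, MKI67, KNL1 and TOP2A, and the intronless or nearly intronless genes 8 of 25 (32%), led by ARF6, whose chain of 4 had a median score of 118. Smaller lists were SOX factors with 2 of 5, SR proteins and nuclear speckle genes with 2 of 6, protocadherins with 2 of 6, giant cadherins with 2 of 7, KLF and SP factors with 3 of 12, HECT ubiquitin ligases with 2 of 11, HOX genes with 3 of 18 and immediate early genes with 2 of 13. KLF6 and BTG1 are in 2 lists each, as is RBM15B.

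**Figure D5:**
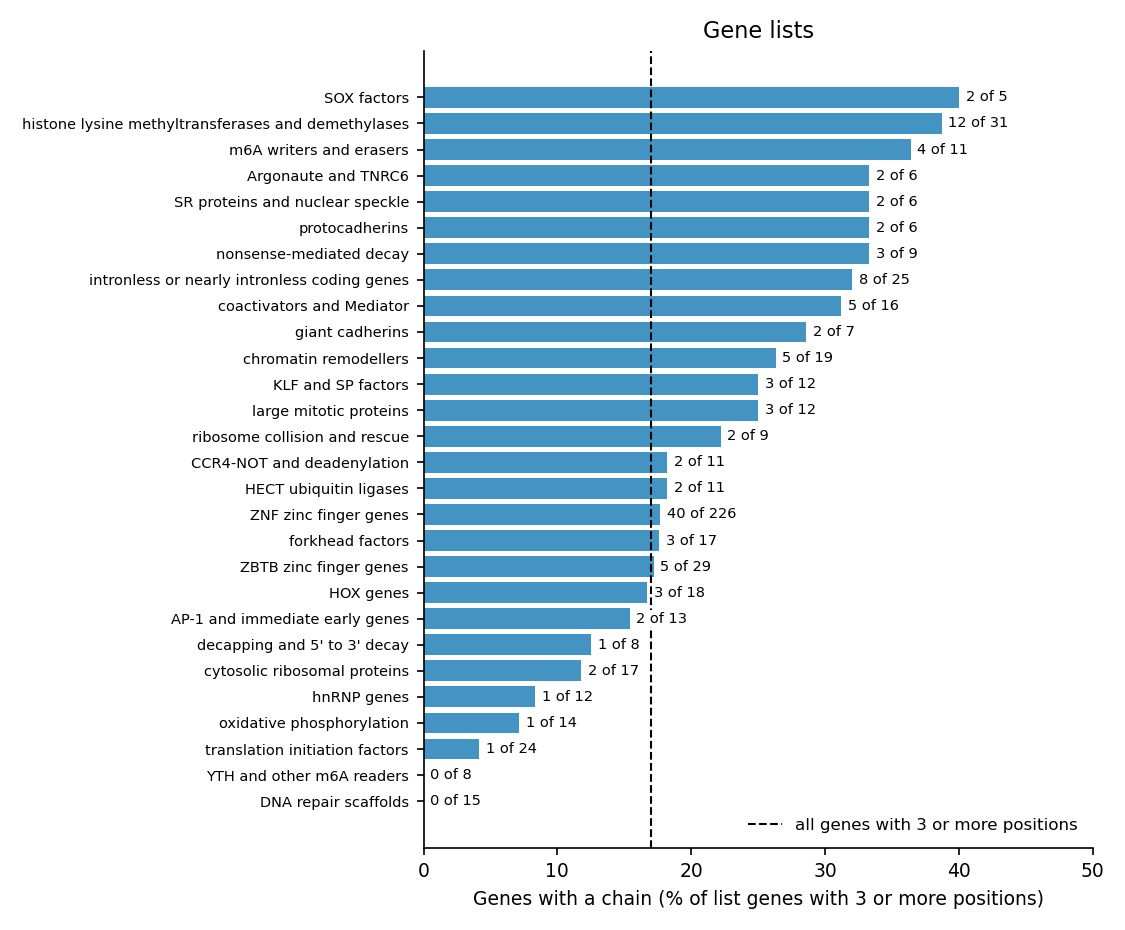
Share of genes with a chain (horizontal axis, percent) among the genes of each list that have 3 or more positions, with the counts beside the bars, for lists with 5 or more such genes. The dashed line marks the 17.0% over all genes with 3 or more positions, and m6A readers and DNA repair scaffolds are at 0.

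The limit of 50 nt passes through a continuous range of gaps. The 60 chains whose widest gap was 49 or 50 nt held 196 positions with a median score of 12.8. A limit of 52 nt would add 226 positions, with a median score of 11.2.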

How the data were processed

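The deposited data were 1 list of YTHDF2 iCLIP2 binding positions of 1 nt, with no header, in which the authors give each row a positive score of unstated scale. Per the submitters' processing notes, the genome build was GRCh38.p12 and the tools included bedtools 2.27.1, UMI-tools 1.0.0, STAR 2.7.3a and FastQC 0.11.8, without their roles. Neither labels nor file name the site caller or how libraries were pooled. The number of columns with values of a single sample was 0, so depth and precision per library are unknown.

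Repeated rows of a position were merged at their higher score, and 43178 rows gave 37613 positions, counted from 1. Positions were chained as the report states. Genes came from a RefSeq table on GRCh38.p14, whose main chromosomes are those of GRCh38.p12. Strands were those of the RefSeq windows where given, and otherwise the majority of positions, and 98.0% of all and 98.1% of chained positions were assigned to 1 protein-coding gene. Of positions in 1 gene with a given strand, 99.9% were on it. Ends of genes are the outermost in the table. Percentile ranks are over the whole list. Sequence windows exist for part of the genes.

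The members and lists were chosen with earlier results of these data known. Named are the 10 chains with most positions, the 6 with the highest median score, the 6 of 5 or more positions with the smallest mean gap, the 10 genes with most chained positions, the 8 with the highest share and the 8 with most chains, and up to 3 genes per list. METTL16 and the genes with sequence fall outside this rule. Some results that the rule names are not reported here. Genes of the rule with 1 short chain are mostly given within the count of their list. Before use, chaining and the comparison within genes were tested on simulated data. Alternatives varied the gap, chain size, score, window and part of the list. Computation used Python 3.11.15 with pandas 2.3.3.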

Additional observations from a re-analysis of the deposited data

How the results depend on the processing

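Of 34 values under alternatives, 16 stayed within 1.5 times the count or within the 95% interval of the value. The number of chained positions was 694, 1831, 5699 and 8762 with a largest gap of 25, 40, 75 and 100 nt, 538 in chains of 4 or more, and 696 among scores at or above the median. Genes with a chain numbered 215 and 1935 at 25 and 100 nt and 212 among those higher scores. The median score of chained positions was 8.43 with the lower score of 2 rows, against 6.72 for lone ones, and chained positions ranked higher in 55.1% of genes at 25 nt, by a mean of 2.09 percentile points, against 58.9% and 5.59. The share on 2 rows, chained minus lone, was −2.84 points at 25 nt and 2.51 at 100 nt, against −0.305. The share in the last 1 kb, chained minus lone, was 2.61 points at 25 nt and −4.20 over 2000 nt, against −2.40, and in the first 1 kb −0.645 at 25 nt and −2.54 at 100 nt, against −1.41. In chains of 4 or more the 3′ end held the highest score in 31.5%, which is not a like comparison with 36.4% in chains of 3, since more positions compete. Fewer or more positions enter at other gaps by construction, and the cause of the other changes was not tested. No paired analysis was possible because the list holds no values per sample, and no replicate could be left out. Read depth behind a position is unknown.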

Other observations

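Chained positions made up all listed positions of 47 genes. RYBP, a Polycomb subunit, had the most of these, with 6 positions in 2 chains on chromosome 3 (minus strand). Its scores were 17.5, 8.40 and 28.7 from 72378362 down to 72378288, and 6.43, 2.61 and 10.5 from 72378588 down to 72378543. EIF2A and IMP4 followed with 5 positions each.

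The shortest chain spanned 11 nt, in SEC61A1, which encodes the channel of the endoplasmic reticulum translocon. Its positions 128070534, 128070540 and 128070544 on chromosome 3 had scores of 18.6, 119 and 48.3, all above the 70th percentile. Chains of 12 nt were in MACF1, ARHGDIA, CHERP, CDS2 and ZNF322. Their lowest and highest scores were 3.43 and 32.2 in MACF1, 7.88 and 35.3 in CHERP, and 0.288 and 38.5 in ZNF322. The scores were 5.63, 2.42 and 48.6 from 5′ to 3′ in ARHGDIA and 0.213, 2.33 and 29.8 in CDS2, a CDP-diacylglycerol synthase. These genes were chosen after their values were seen.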
